A study of Saccharomyces cerevisiae with 71 samples.

Results

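The leucine (Leu) depletion time course comprised 16 of the 71 arrays of the series: 12 arrays of 6 depleted cultures and 4 arrays of reference cultures. They were chosen by their titles, which name the strain, the loss of Leu, the time and the dye orientation. The gcn2Δ strain (WY799, MATα gcn2::URA3 LEU2 TRP1) was set against the isogenic wild-type strain (WY798, MATα URA3 LEU2 TRP1). Both strains of Saccharomyces cerevisiae carry LEU2 and are prototrophic, so neither depends on Leu in the medium for growth. Cells in early log phase in complete synthetic dextrose medium were pelleted and moved to the same medium without Leu, and tRNA charging was measured after 5, 45 and 120 min. There was 1 culture per strain and time, and its RNA was hybridised on 2 arrays with the dyes exchanged, so the 2 arrays of a culture are 1 replicate. All time points of a strain share 1 reference culture, labelled as 5 min without naming a missing amino acid.

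Charging is the attachment of an amino acid to the 3′ end of its tRNA by the cognate aminoacyl-tRNA synthetase. Cells short of an amino acid accumulate its uncharged tRNA, and in yeast the kinase Gcn2p binds uncharged tRNA and phosphorylates the initiation factor eIF2, which raises translation of GCN4, the activator of amino acid biosynthesis genes. Leu is a branched-chain amino acid made by a pathway that leaves the valine (Val) pathway at its last intermediate and shares enzymes with the isoleucine (Ile) pathway, and wild-type and gcn2Δ cells both hold these genes. In the array method, periodate destroys the 3′ ends of uncharged tRNAs in one portion of the RNA, so that this portion reports charged tRNA, while an untreated portion reports total tRNA. The question put to the Leu cultures was whether charging of tRNALeu or of any other tRNA moved after Leu was withdrawn, and whether it did so in 1 strain only.

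Each value is charged over total tRNA of a depleted culture relative to its reference, scaled so that the median of the 41 tRNA probes is 1, and is given here as log2. A change shared by all tRNAs therefore cannot be seen, and negative values are charging below that of the reference relative to the other tRNAs. All 4 reference arrays hold exactly 1 for every probe and carry no information on spread. Each probe carries the name of its amino acid with a number, and the files do not pair it with an anticodon or sequence. Arrays with total tRNA in Cy3 (called Cy3 arrays below) and in Cy5 (Cy5 arrays) are reported apart, since the direction of the Cy5 arrays is not settled. The 2 arrays of a culture correlated over the 41 probes at between -0.48 and 0.22.

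The direction is not settled for every Cy3 array either. Over the 41 probes the wild-type 120-min array ran against the wild-type 5-min array, with r = -0.94 and a slope of -0.93 on the Cy3 arrays and r = -0.81 on the Cy5 arrays. Of the 41 probes, 31 on the Cy3 arrays and 30 on the Cy5 arrays had opposite signs at 120 and 5 min. In the gcn2Δ strain r was -0.35 on the Cy3 arrays and 0.11 on the Cy5 arrays. The wild-type 45-min array correlated with the 5-min array at 0.68 on Cy3 and -0.25 on Cy5. Its r with the 120-min array was -0.47 on Cy3 and 0.27 on Cy5. In the other depletion experiments, 16 pairs of a 15-min and a 60-min array of the same strain and dye correlated at between 0.07 and 0.84, with a median of 0.46. All of these pairs share a reference, which alone moves r, and the values are descriptions. Between strains, which have separate references, the gcn2Δ 45-min array correlated with the wild-type 5-, 45- and 120-min arrays at -0.67, -0.68 and 0.56 on Cy3. On Cy5 these values were -0.09, 0.17 and -0.34. Whether the wild-type ratios at 120 min or at 5 min are inverted, or the cultures differed in this way, was not tested. Values are therefore given as deposited, and each called value is given with the sign turned too.

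**Figure D1:**
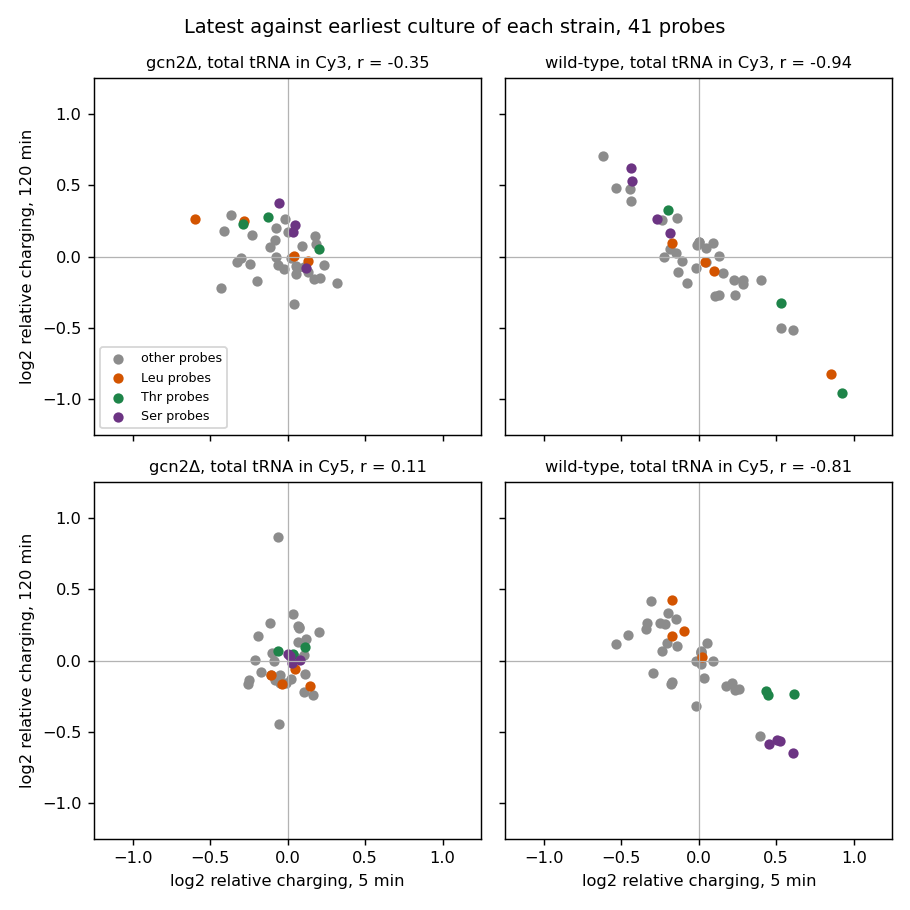
Relative charging (log2, array median at 0) of each of the 41 probes in the 120-min culture against the 5-min culture, for the gcn2Δ strain (left) and the wild-type strain (right) on the Cy3 arrays (top) and Cy5 arrays (bottom). In the wild-type panels the points lie along a falling line (r of -0.94 and -0.81), while the gcn2Δ panels show r of -0.35 and 0.11.

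The Leu arrays varied about as much as a typical comparison array. The SD over the 41 probes was 0.17 to 0.35 on the 6 Cy3 arrays and 0.11 to 0.30 on the 6 Cy5 arrays, and only 2 of the values on these arrays lay more than 1 log2 unit from the median, both on the Cy3 array of the gcn2Δ culture at 45 min. The comparison cultures, which lacked His, Arg, Trp, Trp with Tyr and Phe, or Arg with ornithine added, had SDs of 0.0764 to 0.926 on the Cy3 arrays, with medians of 0.29 at 15 min and 0.30 at 60 min, and of 0.122 to 0.958 on the Cy5 arrays, with medians of 0.24 and 0.25. Comparison cultures were taken at 15 min for the 5-min Leu cultures and at 60 min for the 45- and 120-min cultures, so the times differ. The baselines differ too: comparison ratios are over references labelled as the start of their time course, and the Leu references are labelled as 5 min. Whether this moved the differences between Leu and comparison cultures was not tested. Each Leu culture was compared with 10 such cultures on the Cy3 arrays and with 6 or 8 on the Cy5 arrays (limma, Benjamini-Hochberg adjustment over the 41 probes, adjusted p threshold of 0.05).

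**Figure D2:**
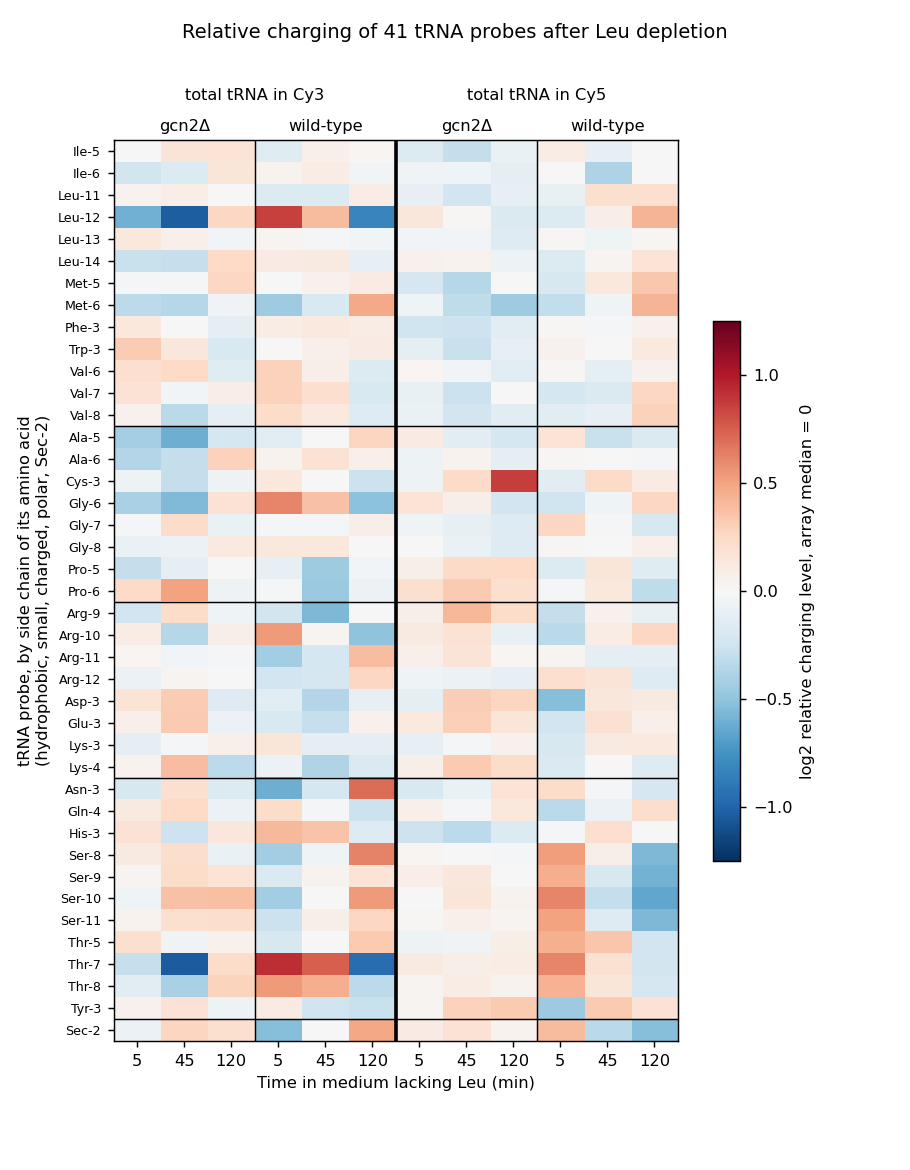
Relative charging (log2, array median at 0, colour scale) of the 41 probes (rows, grouped by the side chain of the amino acid) on the 12 Leu-depletion arrays (columns: Cy3 arrays left, Cy5 arrays right, each with gcn2Δ then wild-type at 5, 45 and 120 min). Leu-12 and Thr-7 carry the strongest colours on the Cy3 arrays, with values down to -1.03 and -1.04, and the 4 Ser probes with Sec-2 change sign between 5 and 120 min in the wild-type strain on both dyes, in opposite senses.

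On the Cy3 arrays the 4 Leu probes did not move together. Leu-12 stood apart, while Leu-11, Leu-13 and Leu-14 did not pass the test in any culture. Leu-12 was at -0.60, -1.03 and 0.26 in gcn2Δ cells at 5, 45 and 120 min, and at 0.85, 0.40 and -0.82 in wild-type cells at the same times. The 10 comparison cultures lay between -0.18 and 0.31 at 15 min and between -0.10 and 0.28 at 60 min, so 5 of the 6 Leu cultures fell outside the range of their comparison cultures, and the gcn2Δ culture at 120 min fell inside it. As ratios to the reference, scaled to the median tRNA of each Cy3 array, these were 0.66, 0.491 and 1.20 in the gcn2Δ cultures. In the wild-type cultures they were 1.81, 1.32 and 0.566. Thus on the Cy3 arrays, relative to the other tRNAs, Leu-12 was below the reference at 5 and 45 min and not at 120 min in the gcn2Δ strain. In the wild-type strain it was the other way round.

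On the Cy5 arrays of the same 6 cultures Leu-12 moved far less. Its values were 0.14, 0.01 and -0.18 in gcn2Δ cells and -0.18, 0.08 and 0.42 in wild-type cells. The sign on Cy5 was opposite to that on Cy3 in 5 cultures and the same only in the wild-type culture at 45 min. None of the 6 Cy5 values passed the test. The largest difference from the comparison cultures was 0.41 ± 0.17 (SE) in wild-type cells at 120 min, with an adjusted p of 0.27 in limma.

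Leu-13 was among the steadiest probes of the array. Its values were 0.13, 0.06 and -0.03 in gcn2Δ cells and 0.04, -0.02 and -0.04 in wild-type cells on the Cy3 arrays, and its SD over these 6 arrays, 0.0664, was the lowest of the 41 probes. Leu-11 was at 0.04, 0.08 and 0.00 in gcn2Δ cells and at -0.17, -0.17 and 0.10 in wild-type cells. Leu-14 was at -0.28, -0.29 and 0.25 in gcn2Δ cells and at 0.10, 0.11 and -0.10 in wild-type cells, with signs like those of Leu-12 but a smaller size. Over the 18 Cy3 tests of these 3 probes the differences from the comparison cultures ran from -0.37 to 0.18, with SE up to 0.25 and a lowest adjusted p of 0.23 in limma. Whether a difference of that size could be detected with 1 culture against 10 was not tested.

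With total tRNA in Cy5, Leu-11 was at -0.11, -0.24 and -0.10 in gcn2Δ cells and at -0.09, 0.20 and 0.21 in wild-type cells. Leu-13 stayed between -0.16 and 0.03 and Leu-14 between -0.17 and 0.17. At 120 min on this dye all 4 Leu probes lay below the array median in gcn2Δ cells (-0.06 to -0.18) and all 4 above it in wild-type cells (0.03 to 0.42), as deposited. This was not particular to Leu: of the 13 probes of hydrophobic amino acids, Leu included, 11 lay below it in gcn2Δ cells and 11 above it in wild-type cells. The mean of the 4 Leu probes, a description with no test, was -0.18, -0.29 and 0.12 in gcn2Δ cells and 0.20, 0.08 and -0.22 in wild-type cells on the Cy3 arrays. Comparison cultures ranged from -0.21 to 0.27 at 15 min and from -0.08 to 0.21 at 60 min, so only the gcn2Δ culture at 45 min and the wild-type culture at 120 min were outside that range. Without Leu-12 the mean was between -0.05 and 0.07 in all 6 cultures. The mean of the 4 on the Cy5 arrays was 0.01, -0.05 and -0.13 in gcn2Δ cells and -0.11, 0.07 and 0.21 in wild-type cells. Comparison cultures on this dye ranged from -0.12 to 0.17 at 15 min and from -0.03 to 0.28 at 60 min, so the gcn2Δ cultures at 45 and 120 min lay below all of them, as deposited, and the other 4 cultures within their range.

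**Figure D3:**
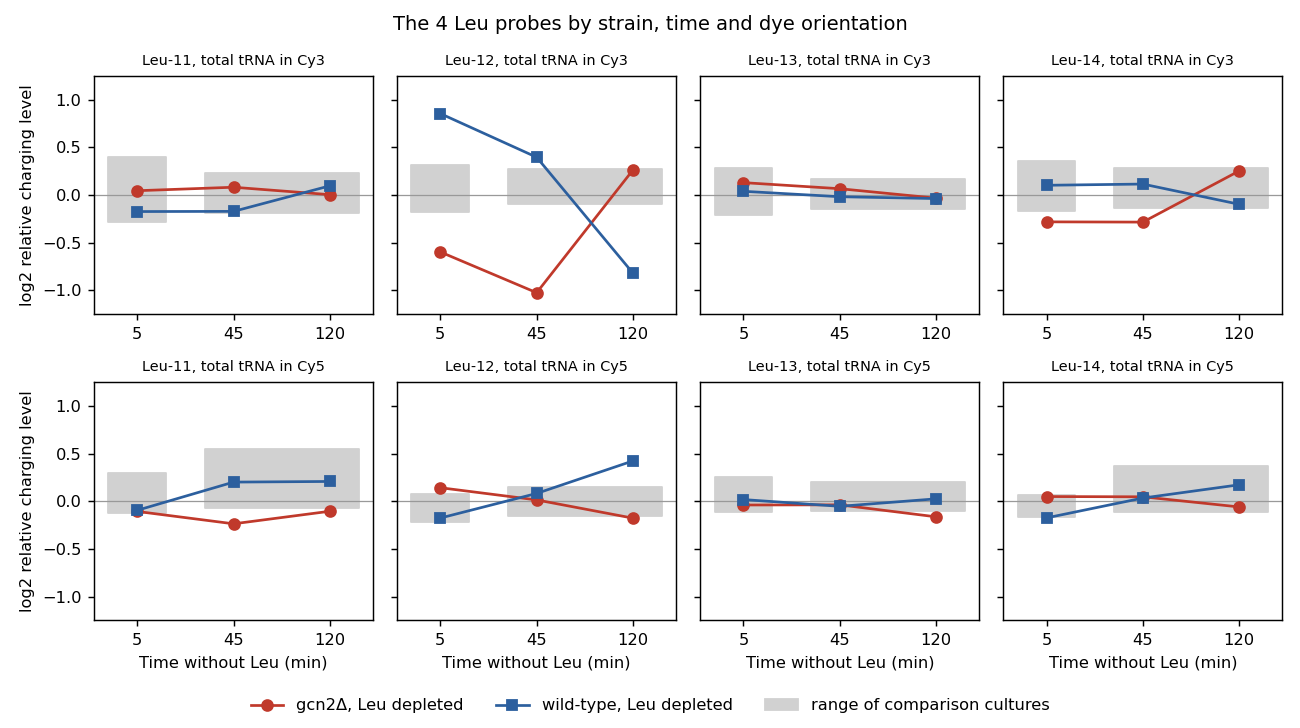
Relative charging (log2, array median at 0) of the 4 Leu probes by time without Leu, in gcn2Δ (circles) and wild-type (squares) cultures, 1 culture per point, on the Cy3 arrays (top) and Cy5 arrays (bottom). Grey bands give the lowest to highest comparison culture, at 15 min for the first time and at 60 min for the other two, and Leu-12 on the Cy3 arrays leaves the band in 5 of 6 cultures.

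The probes for the 2 amino acids whose synthesis shares enzymes with that of Leu, Ile and Val, moved little with total tRNA in Cy3. On the Cy3 arrays the 2 Ile and 3 Val probes lay between -0.33 and 0.29 in all 6 cultures, and none of the 5 passed the test in any. Ile-5 lay between -0.15 and 0.17, Ile-6 between -0.23 and 0.15, Val-6 between -0.17 and 0.29, Val-7 between -0.19 and 0.28 and Val-8 between -0.33 and 0.23. The mean of the 5 was 0.04, -0.03 and 0.03 in gcn2Δ cells and 0.14, 0.11 and -0.11 in wild-type cells. Over the 30 tests the differences from the comparison cultures were between -0.42 and 0.30, and the lowest adjusted p in limma was 0.19, for Val-8 in the gcn2Δ culture at 45 min. Their mean on the Cy5 arrays was -0.08, -0.18 and -0.09 in gcn2Δ cells and -0.05, -0.18 and 0.12 in wild-type cells. At 45 min on this dye all 5 lay below the array median in both strains, as deposited. Ile-6, at -0.39, was the lowest probe of the wild-type array at that time.

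Relative to the comparison cultures, 3 of 41 probes (7.32%) were called in gcn2Δ cells at 45 min, all lower, on the Cy3 array. They were Leu-12 with a difference of -1.10 ± 0.15 (adjusted p = 0.00077 in limma), Thr-7 with -1.09 ± 0.25 (adjusted p = 0.021) and Gly-6 with -0.65 ± 0.17 (adjusted p = 0.041). With this array turned in sign the differences would be 0.95, 0.99 and 0.46, with adjusted p of 0.0030, 0.043 and 0.30. The call of Gly-6 was lost on leaving out any 1 of 6 comparison cultures (adjusted p up to 0.069), namely His gcn2Δ, His wild-type, Arg wild-type, Trp gcn2Δ and either culture with ornithine. The calls of Leu-12 and Thr-7 were kept on leaving out each comparison culture in turn. In the averages over both dyes given below, comparison cultures without a Cy5 array entered with their Cy3 array alone, and "as deposited" refers to the Leu arrays. With the Cy3 and Cy5 arrays averaged as deposited, Leu-12 was still called at -0.56 (adjusted p = 0.019), and Thr-7 at -0.52 and Gly-6 at -0.35 were not (adjusted p of 0.60 and 0.67). With the Leu Cy5 array turned in that average the 3 differences were -0.58, -0.60 and -0.42, and again Leu-12 alone was called (adjusted p = 0.015). In the same strain at 5 min 0 of 41 probes (0%) were called and 2 had an unadjusted p under 0.05, Leu-12 with -0.66 ± 0.20 and Gly-6 with -0.51 ± 0.16 (adjusted p = 0.18 for both). At 120 min 0 of 41 (0%) were called and 1 had an unadjusted p under 0.05, Ser-10, at 0.38 in the culture.

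In wild-type cells 2 of 41 probes (4.88%) were called at 5 min on the Cy3 array, both higher. Thr-7 differed from the comparison cultures by 0.95 ± 0.18 (adjusted p = 0.0081 in limma) and Leu-12 by 0.79 ± 0.20 (adjusted p = 0.046). At 120 min the same 2 probes (4.88%) were called in the opposite direction, Leu-12 with -0.90 ± 0.15 (adjusted p = 0.0048) and Thr-7 with -1.01 ± 0.25 (adjusted p = 0.037). Between these times, at 45 min, 0 of 41 (0%) were called and 1 had an unadjusted p under 0.05, Thr-7 with 0.69 ± 0.25 (adjusted p = 0.70). Turned in sign, the 5-min differences would be -0.91 for Leu-12, -0.90 for Thr-7 and -0.71 for Gly-6 (adjusted p = 0.013 for each), and the 120-min differences 0.74 for Leu-12 (adjusted p = 0.022) and 0.90 for Thr-7 (adjusted p = 0.078). Averaged over both dyes as deposited, Thr-7 at 5 min was still called at 0.78 (adjusted p = 0.011), and Leu-12 was not called at 5 min (0.33, adjusted p = 0.94) or at 120 min (-0.25, adjusted p = 0.64), nor Thr-7 at 120 min (-0.63, adjusted p = 0.64). With the Leu Cy5 array turned in that average the outcome was the other way round: Thr-7 at 5 min was at 0.16 (adjusted p = 0.87) and Leu-12 at 120 min was called at -0.68 (adjusted p = 0.0041), while Leu-12 at 5 min (0.51, adjusted p = 0.12) and Thr-7 at 120 min (-0.40, adjusted p = 0.44) were not called. Some calls depended on single comparison cultures: Leu-12 at 5 min was lost on leaving out any 1 of 6 (adjusted p up to 0.083), which were His gcn2Δ, Arg wild-type, Trp gcn2Δ, Trp with Tyr and Phe wild-type and either culture with ornithine. Thr-7 at 120 min was lost on leaving out His gcn2Δ, Arg gcn2Δ or either culture with ornithine (adjusted p up to 0.063). Thr-7 at 5 min and Leu-12 at 120 min were called without each comparison culture in turn. An exact permutation test of 1 culture against 10 cannot fall below 0.0909, so these calls rest on the spread among comparison cultures and on the assumption that the Leu culture varies like them.

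Thr-7 and Gly-6, probes for threonine and glycine tRNAs, followed Leu-12 over the Cy3 arrays. Thr-7 was at -0.29, -1.04 and 0.23 in gcn2Δ cells and at 0.93, 0.75 and -0.96 in wild-type cells. Gly-6 was at -0.41, -0.55 and 0.18 in gcn2Δ cells and at 0.61, 0.36 and -0.51 in wild-type cells. Both were low where Leu-12 was low and high where it was high in all 6 cultures. Over these 6 arrays the probes most like Leu-12 by Pearson correlation were Gly-6 (0.99), Thr-8 (0.99), Thr-7 (0.97) and Cys-3 (0.92), which is a description over arrays that share references. Other probes for Gly and Thr covered a smaller range on these arrays, and some ran against Leu-12. Gly-8, with r = 0.91 to Leu-12, lay between -0.08 and 0.13. Gly-7, with r = -0.70, lay between -0.09 and 0.23, and Thr-5, with r = -0.62, between -0.20 and 0.32. The lowest r to Leu-12 of the 41 probes was that of another Leu probe, Leu-11 (-0.91). Of the 41 probes, Thr-7, Leu-12, Gly-6, Asn-3 and Thr-8 varied most on the Cy3 Leu arrays (SD of 0.839, 0.761, 0.501, 0.451 and 0.406, against a median of 0.206).

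The dye orientations parted these 3 probes. On the Cy5 arrays Thr-7 was at 0.11, 0.08 and 0.09 in gcn2Δ cells and at 0.61, 0.19 and -0.23 in wild-type cells, so its sign was that of the Cy3 array in all 3 wild-type cultures. Gly-6 was at 0.17, 0.07 and -0.24 in gcn2Δ cells and at -0.25, -0.06 and 0.26 in wild-type cells, opposite in sign to the Cy3 array in all 6 cultures. Over the 6 Cy5 arrays Gly-6 still ran with Leu-12 (r = 0.92), whereas Thr-7 (r = -0.76) and Thr-8 (r = -0.78) ran against it. Turning the Cy5 arrays would therefore bring Gly-6 into the same sign as on Cy3 and take Thr-7 in wild-type cells out of it, so no single direction makes all 3 probes alike on both dyes.

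**Figure D4:**
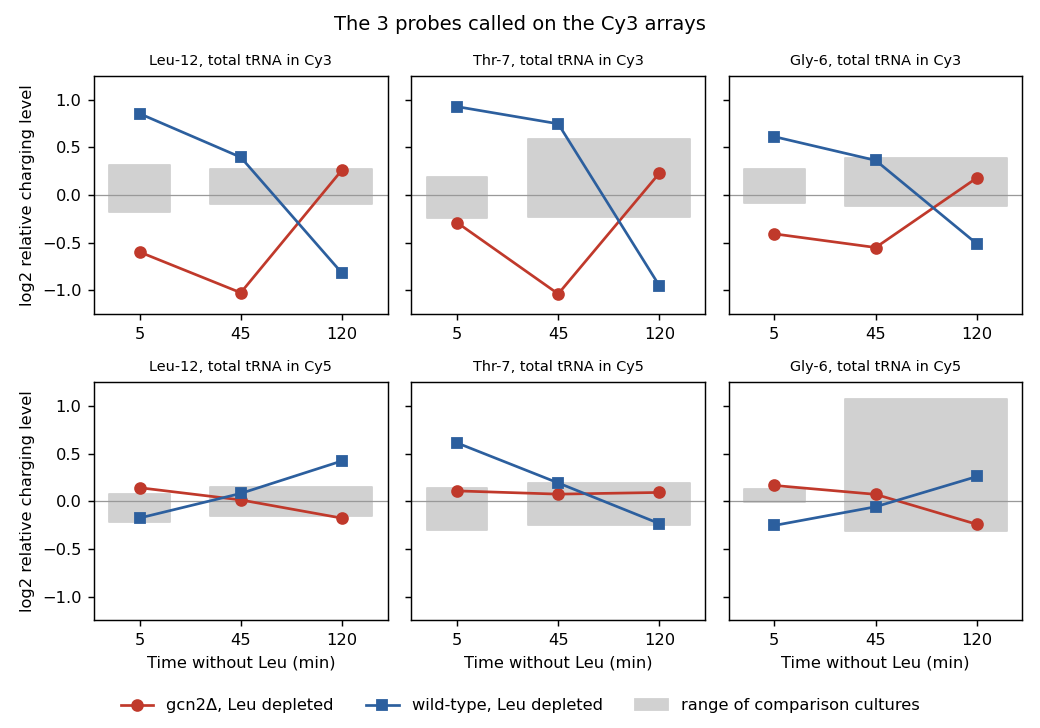
Relative charging (log2, array median at 0) of Leu-12, Thr-7 and Gly-6 by time without Leu in gcn2Δ (circles) and wild-type (squares) cultures, 1 culture per point, on the Cy3 arrays (top) and Cy5 arrays (bottom), with the range of comparison cultures in grey. On the Cy3 arrays all 3 probes take the same course, low in gcn2Δ cells at 45 min and in wild-type cells at 120 min, and the Cy5 values span a narrower range for each probe.

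On the Cy5 arrays 0 of 41 probes (0%) were called by limma in any of the 6 cultures. An unadjusted p under 0.05 was reached by 0, 0 and 1 probes in gcn2Δ cells at 5, 45 and 120 min and by 8, 0 and 5 probes in wild-type cells. The single probe in gcn2Δ cells was Cys-3, a cysteine tRNA, at 0.87 and thus the highest value of any Cy5 Leu array (adjusted p = 0.17), while the Cy3 array of the same culture gave -0.06. The 8 probes of wild-type cells at 5 min were the 4 Ser probes and all 3 Thr probes, which were higher than in the comparison cultures, and Gly-6, which was lower (adjusted p between 0.103 and 0.22). Leaving out the Arg-depleted gcn2Δ culture turned this count of calls to 5. At 120 min Ser-8, Ser-10, Ser-11 and Sec-2 were below and Leu-12 above the comparison cultures (adjusted p of 0.164 to 0.27).

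The 4 Ser probes shared their sign in wild-type cells at 5 and at 120 min, and that sign was opposite on the 2 dyes. Their mean in wild-type cells was -0.33, 0.01 and 0.40 at 5, 45 and 120 min on the Cy3 arrays, and 0.52, -0.15 and -0.59 on the Cy5 arrays. In gcn2Δ cells it was 0.03, 0.25 and 0.17 on the Cy3 arrays and 0.03, 0.09 and 0.02 on the Cy5 arrays. All 4 probes lay below 0 at 5 min and above 0 at 120 min on the wild-type Cy3 arrays, and the reverse on the Cy5 arrays. None was called in any culture, and the lowest adjusted p on the Cy3 arrays was 0.055, for Ser-8 in wild-type cells at 120 min. The probe named Sec-2 took the same course in wild-type cells, with -0.53, 0.00 and 0.48 on Cy3 and 0.39, -0.34 and -0.53 on Cy5.

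Grouped by the side chain of the amino acid, the probes had group means between -0.26 and 0.11 on the Cy3 arrays. No range of comparison cultures was taken for these groups. Probes of hydrophobic amino acids (13 probes, Leu included) had group means between -0.12 and 0.09 on the 6 Cy3 arrays, and probes of small amino acids (8 probes) between -0.18 and 0.08. Probes of polar amino acids (11 probes) had means between -0.01 and 0.10. In wild-type cells that mean joined Ser and Thr probes with means of opposite sign. These were -0.33 for Ser and 0.42 for Thr at 5 min, and 0.40 and -0.32 at 120 min. On the Cy5 arrays the polar mean was 0.27 at 5 min and -0.26 at 120 min in wild-type cells, a group that holds the Ser and Thr probes, and the hydrophobic mean was 0.18 in wild-type cells at 120 min, with 11 of 13 probes above the array median. For charged amino acids (8 probes) the Cy3 mean was between -0.26 and 0.11, and it was lowest in wild-type cells at 45 min, where 7 of the 8 lay below the array median. Among them were Arg-9 at -0.56, the lowest probe of that array, Lys-4 at -0.38 and Asp-3 at -0.37, none of which was called. Met-6 was at -0.33, -0.36 and -0.04 in gcn2Δ cells and at -0.44, -0.19 and 0.47 in wild-type cells on the Cy3 arrays, and was not called. Trp-3, the highest probe of the gcn2Δ array at 5 min with 0.32, and His-3, at 0.40 in wild-type cells at 5 min, were not called either. Pro-6 was the highest probe of the gcn2Δ arrays at 45 min on Cy3 (0.50) and at 5 min on Cy5 (0.20), and Met-5 the lowest of the gcn2Δ array at 45 min on Cy5 (-0.35). Neither was called.

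The comparison of strains was made as the difference in gcn2Δ minus wild-type cells, set against the same difference in the 5 other experiments, on the Cy3 arrays. At 5 min 3 of 41 probes (7.32%) were called, all lower in gcn2Δ cells. The excess over the other experiments was -1.64 ± 0.30 for Leu-12 (adjusted p = 0.034 in limma), -1.32 ± 0.28 for Thr-7 (adjusted p = 0.035) and -1.14 ± 0.25 for Gly-6 (adjusted p = 0.035). At 45 min 1 of 41 (2.44%) was called, Leu-12 with -1.50 ± 0.26 (adjusted p = 0.049), and Thr-7 with -1.75 ± 0.35 missed the threshold (adjusted p = 0.050). At 120 min 0 of 41 (0%) were called and 3 had an unadjusted p under 0.05, among them Leu-12 with 1.00 ± 0.26 and Thr-7 with 1.22 ± 0.35 (adjusted p = 0.27 for both), higher in gcn2Δ cells.

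The difference for Leu-12 itself was -1.45, -1.42 and 1.08 at 5, 45 and 120 min, and that of the other experiments averaged 0.19 at 15 min and 0.08 at 60 min. The call at 45 min was lost on leaving out any of the 5 other experiments, and all 3 calls at 5 min on leaving out the His, the Arg, or the Trp with Tyr and Phe experiment, while Leu-12 alone was called without the Trp experiment. An exact permutation test of 1 experiment against 5 cannot fall below 0.167. With the wild-type array turned, the 5-min excess of Leu-12, Thr-7 and Gly-6 would be 0.07, 0.53 and 0.08, and with the gcn2Δ array turned -0.44, -0.74 and -0.32, with no probe called in either case. Averaged over both dyes as deposited, the excess was -0.71, -0.95 and -0.38, and with the Leu Cy5 arrays turned in the average it was -1.02, -0.45 and -0.80, with no probe called in either. At 45 min Leu-12 would be at -0.71 with the wild-type array turned and at 0.55 with the gcn2Δ array turned. At 120 min Leu-12 and Thr-7 would be at -0.64 and -0.69 with the wild-type array turned, and at 0.48 and 0.76 with the gcn2Δ array turned, again with no call.

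**Figure D5:**
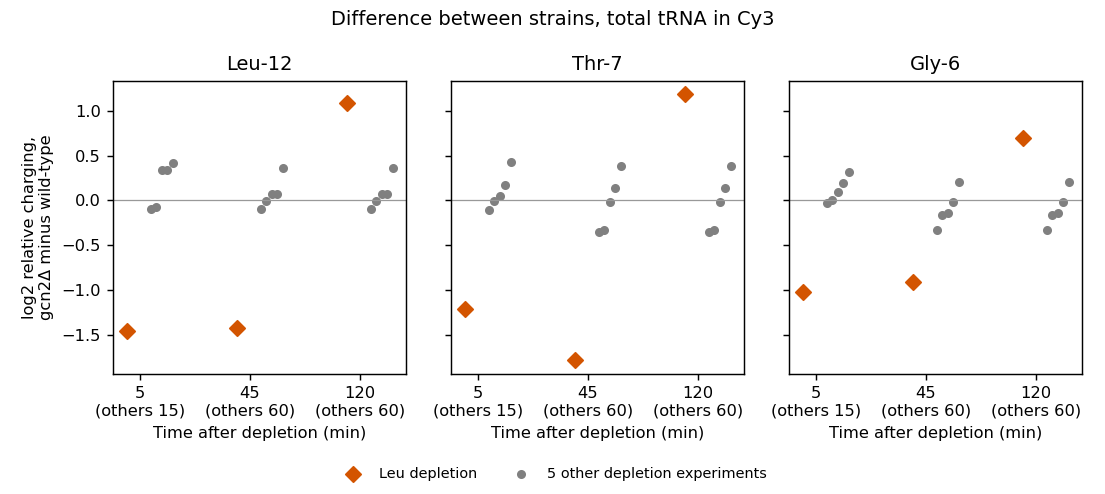
Difference in relative charging (log2, gcn2Δ minus wild-type, Cy3 arrays) of Leu-12, Thr-7 and Gly-6 in the Leu cultures (diamonds) and in the 5 other depletion experiments (grey points) by time. The Leu cultures lie below all other experiments at 5 and 45 min and above all of them at 120 min for each of the 3 probes.

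The course over the 3 times, with both strains in a fit of strain and time, held no probe past the threshold: 0 of 41 (0%) in each of the 3 contrasts between times on either dye. The 2 strains are the replicates of this fit, so it asks only for a course shared by both. A course that differs between the strains adds to the SE and is not tested. An unadjusted p under 0.05 was reached by 3 probes for 120 against 5 min on the Cy3 arrays, with a lowest adjusted p of 0.63 in limma, for Ser-10. On the Cy5 arrays it was reached by 3 probes for 45 against 5 min and by 3 for 120 against 5 min. Ser-10 was higher at 120 than at 5 min in both strains on the Cy3 arrays, by 0.43 in gcn2Δ cells and 0.96 in wild-type cells. For Leu-12 the strains took opposite courses on the Cy3 arrays: from 5 to 120 min its change was 0.86 in gcn2Δ cells and -1.67 in wild-type cells, and the mean change of -0.41 had an SE of 0.65. Thr-7 changed by 0.52 in gcn2Δ cells and by -1.88 in wild-type cells over the same interval. Turning the wild-type 120-min array left 0 probes called in each contrast, with the change of Leu-12 from 45 to 120 min at 0.86 (adjusted p = 0.26 in limma). No other single array was turned in this fit.

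The change over time, as deposited, was not alike on the exchanged dyes. Over the 41 probes, the change from 5 to 120 min on the Cy3 arrays correlated with that on the Cy5 arrays at -0.32 in gcn2Δ cells and -0.40 in wild-type cells. For the change from 5 to 45 min it was 0.44 in gcn2Δ cells and -0.72 in wild-type cells. Leu-12 on the Cy5 arrays changed from 5 to 120 min by -0.32 in gcn2Δ cells and by 0.60 in wild-type cells, opposite to the Cy3 arrays in each strain. With the Cy5 arrays turned, each of these signs would be reversed, so that Leu-12, both wild-type correlations and the gcn2Δ correlation for 5 to 120 min would run with the Cy3 arrays while the gcn2Δ correlation for 5 to 45 min would run against them. Since the exchanged arrays hold the same RNA, these correlations describe the measurement and not separate cultures.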

How the data were processed

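Charging of tRNA was measured on 2-colour arrays with 41 tRNA probes. Which tRNA the probe named Sec-2 reads is not given in the sources used here. The authors deposited ratio values, on a linear scale: charged over total tRNA of a culture divided by the same quantity on the matching reference array, with each array's median brought to 1. The scanner and image analysis are not given in the sources used here, so signal over background was not analysed, and the number of cultures limits the precision. All 71 columns were assigned to a sample, and no value was missing.

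Ratios were turned to log2 without a pseudocount, and every array was centred on its median. Each Leu culture was compared with cultures of the 5 other depletion experiments in limma 3.58.1 (R 4.3.3; lmFit, then eBayes). P-values were adjusted by Benjamini-Hochberg over all 41 probes, with 0.05 as the threshold. Its own spread cannot be known from 1 culture and was taken to equal that of the comparison cultures. The 4 Cy5 arrays of the Trp experiment were turned in sign, also in averages over both dyes, since as deposited they run against their Cy3 partners. In those averages, cultures without a Cy5 array entered with their Cy3 array alone. The difference between strains was fitted as 1 experiment against 5, and time as a factor beside strain on the 6 arrays of a dye, in which the 2 strains serve as replicates. Exact permutation tests cannot fall below 0.0909 for 1 against 10, 0.143 against 6, 0.111 against 8 and 0.167 against 5. The fits were also run on simulated data in which every culture of a probe was drawn with the same spread. This cannot test the assumption of equal spread, and shared references and inverted arrays were not simulated. Nothing in the sources says that cultures of a strain came from separate days, so p-values measure only the spread between these cultures. Time points come from the titles, whereas the protocol in the labels names only 15 and 60 min.

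Probes were named by a rule that takes all Leu, Ile and Val probes, every called probe, the lowest and highest probe of each Leu array, the 5 probes that varied most on the Cy3 Leu arrays and, where a value was needed, probes of Met, Trp, Arg, Asp, Lys and His. The Ser probes, Sec-2, Cys-3, Thr-5, Gly-7 and Gly-8 were described after their values were seen. Members and lists were chosen with earlier results of these data known. Alternatives were other centring, both dyes averaged, comparison cultures of the same strain or of exchanged times, masking of probes for the amino acids each comparison culture lacked, a robust fit, turned arrays and leaving out each comparison culture. Figures were drawn with matplotlib 3.10.9. No probe or tRNA sequences were used here.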

Additional observations from a re-analysis of the deposited data

Results flagged for a closer look

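Results for 3 probes drew attention because they were called in a test of the difference between the strains (gcn2Δ minus wild-type, Cy3 arrays, against 5 other experiments, limma). At 5 min these were Leu-12 with -1.64 (adjusted p = 0.034), Thr-7 with -1.32 (adjusted p = 0.035) and Gly-6 with -1.14 (adjusted p = 0.035). At 45 min it was Leu-12 alone, with -1.50 (adjusted p = 0.049). Over 11 alternatives the adjusted p ran from 0.033 to 0.97 for Leu-12 at 5 min, from 0.040 to 0.88 for Thr-7, from 0.040 to 0.97 for Gly-6 and from 0.022 to 0.98 for Leu-12 at 45 min. There was 1 culture per strain and time. No group held 4 or more replicate cultures, so single outlying cultures could not be looked for.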

How the results depend on the processing

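Counts of called probes depended on the setting. In gcn2Δ cells at 45 min (Cy3, 3 called) 1 (Leu-12) remained called with both dyes averaged, as deposited or with the Leu Cy5 array turned, and with comparison cultures of the same strain only. In wild-type cells at 5 min (2 called) the count was 1 with both dyes averaged as deposited and with the 15- and 60-min comparison cultures exchanged, and 0 with the Cy5 array turned in that average, with mean centring and with the same strain only. At 120 min (2 called) it was 0 with both dyes averaged and with the same strain only, 1 with the turned average, mean centring or the Cy3 array turned, and 4 with probes masked for the amino acids a culture lacked (Gly-6, Leu-12, Ser-8 and Thr-7). Exchanging comparison times gave 1 in gcn2Δ cells at 5 min and in wild-type cells at 45 min (0 called). Between strains, the count at 5 min (3 called) and at 45 min (1 called) was 0 with either average, mean centring or 1 array turned, and at 45 min 2 with masking. On leaving out 1 comparison culture or experiment, counts ran from 1 to 2 in wild-type cells at 5 min, from 1 to 3 at 120 min, from 0 to 5 at 5 min on Cy5, from 0 to 3 between strains at 5 min, and were 0 at 45 min. Turned arrays, chosen after seeing the data, reversed Leu-12, Thr-7 and Gly-6 to 0.95, 0.99 and 0.46 in gcn2Δ cells at 45 min, to -0.91, -0.90 and -0.71 in wild-type cells at 5 min, and Leu-12 and Thr-7 to 0.74 and 0.90 at 120 min. Between strains they became 0.07, 0.53 and 0.08 at 5 min, and Leu-12 0.55 at 45 min. The median of the Leu probes, in place of the mean, was -0.11 in gcn2Δ cells at 45 min and -0.07 in wild-type cells at 120 min. Another 186 counts stayed within 1.5 times the count as reported, and 34 Leu means moved by less than the spread of the comparison cultures. Of the values of named probes, 1115 kept their side of the threshold, 69 lost and 7 gained a call. Another 12 reversed in sign with a call in either setting. The 1115 include values called in neither setting. Between strains, Leu-12, Thr-7 and Gly-6 at 5 min stayed past the threshold in 3, 2 and 2 of 11 alternatives, and Leu-12 at 45 min in 1. Leu-12 in gcn2Δ cells at 45 min passed the threshold under all 19 alternatives run, with its sign reversed under the turned array. Each of these alternatives uses the same Cy3 array, alone or in an average with its Cy5 partner. The Cy5 array alone was not among them. It gave 0.01 for Leu-12, a difference of 0.0053 from the comparison cultures.

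Leaving out a strain from the fit of time was not run, since it leaves no residual degrees of freedom. The labels give the cultures no replicate numbers to pair by, and the comparison of strains is paired by experiment and time. The depth of signal behind each ratio is unknown, and 1 culture per strain and time is the limit on every comparison.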
